A study of Mus musculus with 56 samples.

Results

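The 8 genes Lipc, Lipg, Lpl, Angptl4, Vldlr, Mttp, Lrp1 and Tm6sf2 encode lipases, a lipase inhibitor, receptors and assembly factors of the plasma lipoproteins. They were chosen by name from the 23813 genes of a table of liver transcript levels, and all 8 were measured. Poly(A) RNA was sequenced from the livers of 12 male mice in 3 groups of 4, to learn how thyroid hormone and the corepressor NCOR1 set liver gene expression. WT mice on a low iodine diet with propylthiouracil (PTU), a drug that blocks the synthesis of thyroid hormone, were hypothyroid (WT PTU). WT mice on that diet which were injected with triiodothyronine (T3) were hyperthyroid (WT PTU + T3). L-NCOR1ΔID mice, labelled NCORdeltaID, received PTU without T3. They express in the liver an NCOR1 protein that lacks domains for contact with the thyroid hormone receptor. PTU was thus shared by all 3 groups, and mice with normal thyroid hormone and mutant mice given T3 were not analysed here. Per the study's methods, mice not given T3 were injected with vehicle. The L-NCOR1ΔID line has a mixed C57BL/6 and 129S background, and the strain of the WT mice of these groups is not given in the sources used here. Over the whole study, L-NCOR1ΔID mice on PTU were younger on average than both WT groups and had heavier livers. Ages of the sequenced mice are not given, and the part of age was not tested. The promoter that limits the mutation to liver is not given in the sources used here. The study calls its replicates biological, while the labels number the libraries without naming mice.

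The liver secretes triglyceride packed with apolipoprotein B in very low density lipoproteins. Lipases bound to the vessel wall then hydrolyse the lipids of the circulating particles, angiopoietin-like proteins restrain these lipases, and receptors of the LDL receptor family clear the remnants. Thyroid hormone acts through thyroid hormone receptors (TRs), which bind DNA at paired half-sites such as the DR4 element, a direct repeat with a spacing of 4 bases.

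Values are RPKM, read density per kilobase of transcript scaled to the aligned reads of the library, so levels can be compared between genes. The steps between low values imply between 21302000 and 42735000 reads per library, so that 0.1 RPKM stands for 2.13 to 4.27 reads per kilobase. Depth differed by group, at 21302000 to 26063000 reads in WT PTU + T3, 29087000 to 38212000 in WT PTU and 38156000 to 42735000 in L-NCOR1ΔID. Every WT PTU + T3 library was thus shallower than every library of the other groups. Ncor1 was at 12.1 to 13.9 RPKM in L-NCOR1ΔID and at 14.1 to 15.6 RPKM in WT PTU libraries, which cannot check a deletion of single exons. Dio1, a T3 target, was at 458.6 to 640.6 RPKM in WT PTU + T3 and at 0.719 to 57.7 RPKM in WT PTU libraries. Hepatocyte markers were high in every library, but their sum over 7 genes was lower in WT PTU + T3 (23703 to 32576 RPKM) than in WT PTU (40105 to 51874 RPKM) without overlap, and 34755 to 39885 RPKM in L-NCOR1ΔID. Alb made up most of this sum in WT PTU, at 27356 to 37284 RPKM, and was at 11609 to 17486 RPKM in WT PTU + T3. Alb and Ttr of this list were called lower with T3 and Hpx was called higher. For T3, 4 of the 7 markers had a log2 fold change above 0. Markers of other tissues stood out in 3 libraries. The sum of pancreatic acinar markers was 779.8 RPKM in WT PTU + T3 replicate 3 and at most 17.6 RPKM elsewhere, and that of skeletal muscle markers was 27.5 RPKM in WT PTU replicate 4 and 7.29 RPKM in L-NCOR1ΔID replicate 1 against at most 1.22 RPKM elsewhere. Of 9 Kupffer cell and macrophage markers, 9 were called higher in WT PTU + T3 than in WT PTU. Their summed level was 72.0 to 102.5 RPKM in WT PTU, 216.5 to 330.0 RPKM in WT PTU + T3 and 75.1 to 203.2 RPKM in L-NCOR1ΔID libraries. Over 10 sinusoidal endothelial markers the sum was 69.9 to 98.0 RPKM in WT PTU, 105.15 to 120.01 RPKM in WT PTU + T3 and 85.1 to 112.9 RPKM in L-NCOR1ΔID, and over 10 stellate cell and fibroblast markers it was 49.3 to 70.7, 83.8 to 97.0 and 67.95 to 119.97 RPKM in the same order. The part of these markers in the results below was not tested.

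The genes were placed on the mm9 genome with GENCODE M1. Lipc is at chr9:70645936-70800033, Lpl at chr8:71404390-71431347 and Angptl4 at chr17:33910695-33918520. Vldlr is at chr19:27290974-27328721, Mttp at chr3:137752819-137806352, Lrp1 at chr10:126975217-127058204 and Tm6sf2 at chr8:72596823-72603965. The deposited list of 37200 regions acetylated at H3K27 or H3K9 in livers of hypothyroid or hyperthyroid WT mice gives positions only. The study also reports acetylation values and overlap with TR binding sites per region, which were not used here. Acetylation was thus not compared between conditions. A region covered the start site of the first named coding transcript of all 8 genes, as it did for 54.5% of 22238 coding genes. Lrp1 and Lipc stood in long regions of 36938 and 23065 bp, the 73rd and 304th longest, whereas the regions at Lpl and Vldlr measured 3261 and 3397 bp, against a median of 2537 bp over all regions. Within 100 kb of the start sites there were 65 regions in all. Angptl4 had 13 and Vldlr had 1, the one at its start, while the median coding gene had 5.

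Direct repeats of AGGTCA spaced by 4 bases were searched on both strands of these regions, and matches were scored by how many of the 12 half-site bases fit. The best match is shown for the 4 of the 8 genes that also had an entry in the RefSeq promoter table, to show how near to a full element each region comes. Letters run 5′ to 3′ on the strand named, with the half-sites in capitals and the spacer in lower case.
Lipc, 12 of 12 half-site bases, mm9 chr9:70762697-70762712, minus strand: AGGTCAtcagAGGTCA
Lrp1, 11 of 12 half-site bases, mm9 chr10:126958625-126958640, minus strand: AGGTCAgaggAGGGCA
Mttp, 10 of 12 half-site bases, mm9 chr3:137793897-137793912, plus strand: AGGTAAcattAGCTCA
Vldlr, 10 of 12 half-site bases, mm9 chr19:27293276-27293291, plus strand: AGGTCTtaagAGGTGA
The Lipc match was complete. It lay in an intron, 19911 bp downstream of the start site, in a region of 3005 bp. A complete match was present in 0.274% of all regions (102) and in 7 of the 3616 regions within 10% of the length of this one. The Lrp1 match lay 99572 bp from the start site, in Shmt2, a neighbouring gene. The Mttp and Vldlr matches were intronic, 437 and 1436 bp downstream of the start sites. Matches of at least 10 bases were present in 33.1% of all regions and those of at least 11 in 4.48%, so the Mttp and Vldlr matches are of a common kind. Lpl had a match of 11 bases 706 bp downstream of its start site, in an intron, and 3.90% of regions of like length had at least as good a match. Of the promoters from 250 bp before to 50 bp after the start in RefSeq (GRCm38.p6), those of Lipc, Vldlr, Mttp and Lrp1 reached 9, 7, 8 and 7 of the 12 bases, while 3.02% of all 32851 promoters reached at least 10. Lipg, Lpl, Angptl4 and Tm6sf2 had no entry. A match describes the letters only and not binding of a receptor.

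**Figure D1:**
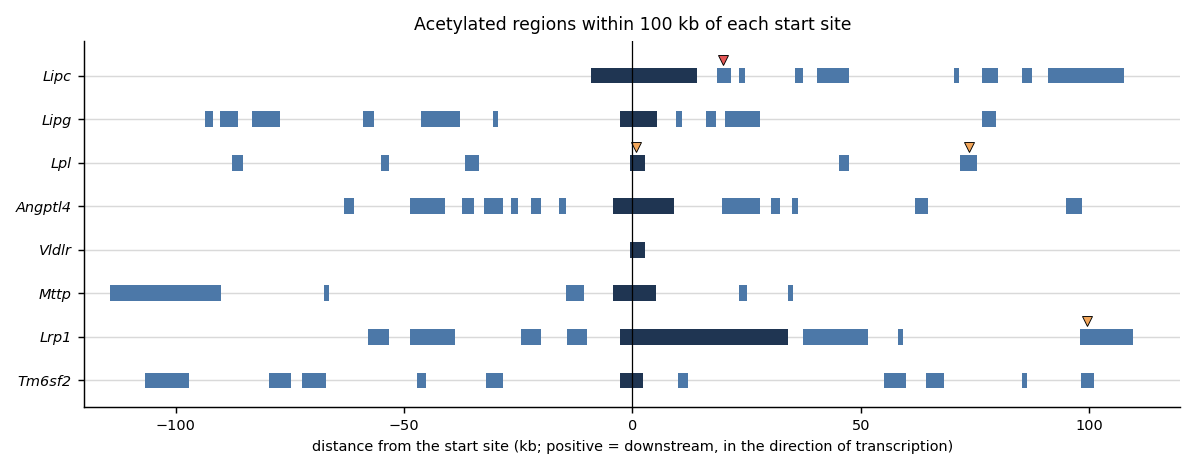
Acetylated regions (bars, drawn to scale) within 100 kb of the start site of each gene, with distance from the start site in kb on the x axis and positive values downstream. Dark bars cover the start site, the red triangle marks the complete match of 12 bases at Lipc, and orange triangles mark matches of 11 bases, which are not marked for Lipg. Vldlr has 1 region, and Angptl4 has 13.

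In hypothyroid WT livers, the 8 genes fell into an abundant and a scarce set. Mttp had the highest mean RPKM (72.4 ± 8.84, SD, n = 4), followed by Angptl4 (69.1 ± 5.42), Lrp1 (67.5 ± 5.06) and Lipc (62.0 ± 2.86), and each of these neighbours overlapped with the next. Every Lipc library was above every Tm6sf2 library (mean 11.3 ± 2.00 RPKM). Lpl (5.94 ± 4.52) and Lipg (5.35 ± 3.32) overlapped, and Vldlr was lowest at 1.24 ± 0.641 RPKM, with every library under every Lipg library. In hyperthyroid WT livers Mttp stood apart at the top (147.0 ± 11.3 RPKM), with every library above those of Angptl4. Lipg (21.0 ± 2.73) then ranked above Lpl (5.74 ± 2.43) with no overlap, whereas Tm6sf2 and Lipg overlapped. In L-NCOR1ΔID livers Lpl (12.6 ± 2.37) and Lipg (4.92 ± 3.47) overlapped again.

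**Figure D2:**
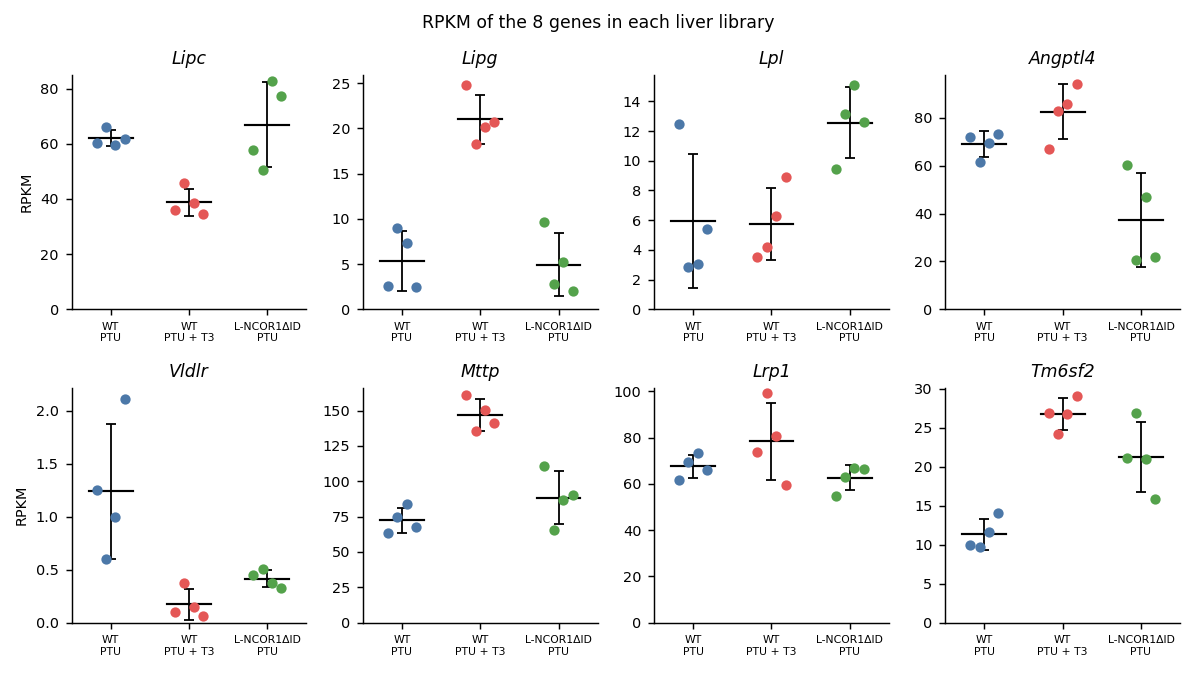
RPKM of each gene (y axis, each panel on its own scale from 0) in the 4 libraries of each group, with 1 point per library, the mean as a horizontal line and the SD as an error bar. Lipg, Mttp and Tm6sf2 libraries of WT PTU + T3 mice all sit above those of WT PTU mice, and Lipc and Vldlr libraries all sit below.

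The question of the first comparison was which of the genes respond to T3. Lipg, Mttp and Tm6sf2 rose and Vldlr fell in hyperthyroid against hypothyroid WT livers at the thresholds used (adjusted p below 0.01, and a fold change of more than 1 log2 unit either way). That is 3 of 8 genes called higher and 1 of 8 called lower, beside 8.28% and 3.47% of the 13941 genes tested. For 5 of 8 genes the groups did not overlap, as for 46.6% of genes. In the same contrast the summed hepatocyte markers were lower, and those of macrophages, sinusoidal endothelium and stellate cells higher, without overlap of the groups. The hepatocyte sum was mostly Alb in WT PTU, and 4 of its 7 markers had a log2 fold change above 0. Of 10 sinusoidal endothelial markers 1 was called higher, as was 1 of 10 stellate cell and fibroblast markers, beside 8.28% of all genes. The median log2 fold changes of these 2 lists were 0.31 and 0.71. Dcn made up most of the stellate sum in WT PTU, at a mean of 43.5 RPKM. The median log2 fold change was 0.22 over the 8 genes and 0.23 over all genes tested. Scaling the libraries by the median of gene ratios, in place of total reads, brought the latter to 0.01 and moved the calls over all genes from 1155 higher and 484 lower to 747 higher and 681 lower. The T3 values of Lpl and Lrp1, both under 0.23, turned negative with that scaling.

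The second comparison asked what the L-NCOR1ΔID mutation does in mice on PTU that were not given T3. The study proposes that the deleted domains may also serve recruitment of NCOR1 to regulators other than TR. None of the 8 genes was called between L-NCOR1ΔID and WT PTU livers by limma at an adjusted p under 0.01, where 0.725% of 13790 genes were called higher and 0.544% lower. At an unadjusted p under 0.05, 4 of the 8 genes passed (Lpl, Angptl4, Vldlr and Tm6sf2), as did 20.5% of all genes. The groups did not overlap for 3 of 8 genes (Angptl4, Vldlr and Tm6sf2), beside 13.1% of all genes. WT PTU + T3 and L-NCOR1ΔID livers were also compared directly, since both were set against the same WT PTU libraries. Lipg was called higher and Lpl lower in WT PTU + T3, that is 1 of 8 in each direction beside 5.52% and 3.00% of 14017 genes. With scaling by gene ratios the median of all genes in this comparison moved from 0.19 to 0.01, and the calls from 774 higher and 421 lower to 539 higher and 577 lower. The groups did not overlap for 5 of 8 genes, beside 38.3% of all genes.

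**Figure D3:**
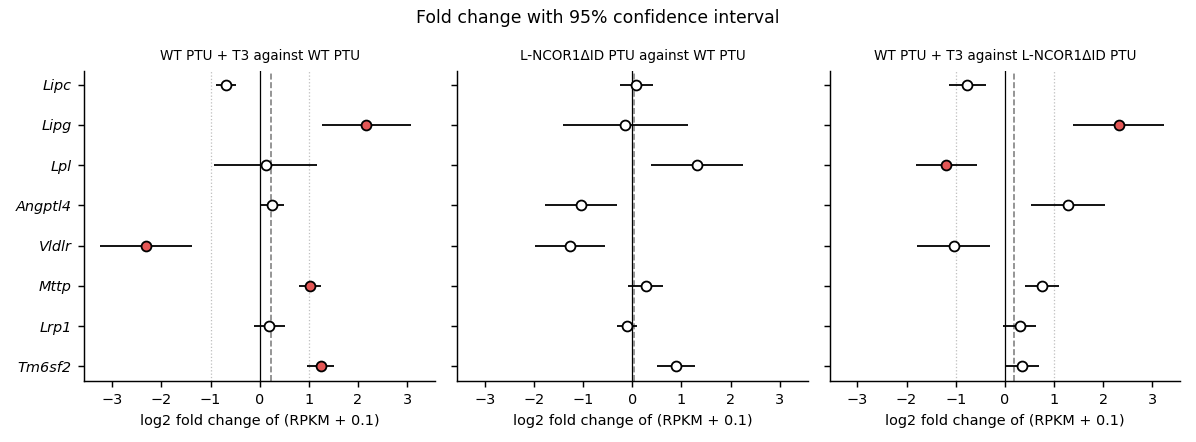
Log2 fold change of RPKM + 0.1 (x axis) of each gene in the 3 comparisons, with bars for the 95% confidence interval from limma. Filled points were called, the dashed line is the median of all genes tested, and dotted lines at -1 and 1 mark the size threshold where one was used. Lipg, Mttp, Tm6sf2 and Vldlr are filled in the first panel, none in the second, and Lipg and Lpl in the third.

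Lipc encodes hepatic lipase, which acts on the lipids of remnants and high density lipoproteins. Its RPKM was 60.4, 66.0, 59.6 and 61.9 in WT PTU and 35.9, 45.8, 38.5 and 34.7 in WT PTU + T3 replicates 1 to 4. All hyperthyroid libraries were below all hypothyroid ones. The log2 fold change of -0.68 ± 0.09 (SE, adjusted p = 0.000406) missed the size threshold, and Lipc was not called. At an adjusted p under 0.01 with no threshold on size, where Lipc would count, 7.71% of genes were lower and 24.5% were higher. In L-NCOR1ΔID the RPKM was 57.6, 50.4, 82.6 and 77.2, on either side of the WT PTU values (log2 fold change 0.08 ± 0.15, 95% interval -0.26 to 0.42, adjusted p = 0.801). Lipc was lower in WT PTU + T3 than in L-NCOR1ΔID by 0.77 ± 0.17 on the log2 scale without overlap (adjusted p = 0.00695), again short of the size threshold.

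Lipg, at chr18:75098976-75120917 of mm9, encodes endothelial lipase, a phospholipase that acts on high density lipoproteins. Its RPKM was 2.59, 9.02, 7.29 and 2.48 in WT PTU, and 24.8, 18.3, 20.2 and 20.7 in WT PTU + T3. Each hyperthyroid library was above each hypothyroid one, and the ratio of the means was 3.93. Lipg rose by 2.17 ± 0.40 on the log2 scale (adjusted p = 0.00204). In L-NCOR1ΔID it was at 9.70, 2.76, 5.23 and 2.00 RPKM, over the same range as in WT PTU (log2 fold change -0.14 ± 0.56, 95% interval -1.42 to 1.13, adjusted p = 0.916). The direct comparison gave a level 4.26 times as high in WT PTU + T3 as in L-NCOR1ΔID (log2 fold change 2.32 ± 0.41, adjusted p = 0.00273). Lipg varied 3.64-fold among WT PTU and 4.85-fold among L-NCOR1ΔID libraries, but 1.35-fold among WT PTU + T3 libraries. Without the 3 libraries that hold pancreas or muscle RNA, the T3 change of Lipg was 1.91 with an adjusted p of 0.0150, and its call was lost.

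Lpl encodes lipoprotein lipase, which releases fatty acids from triglyceride-rich particles and is made mainly in adipose tissue and muscle, and also by macrophages. Its RPKM was 12.5, 2.85, 3.03 and 5.40 in WT PTU and 3.55, 4.18, 6.30 and 8.92 in WT PTU + T3. The groups overlapped, and WT PTU replicate 1 was above every hyperthyroid library. The T3 difference of 0.12 ± 0.46 (95% interval -0.92 to 1.17, adjusted p = 0.842) turned to between -0.13 and -0.10 when WT PTU replicate 2, WT PTU replicate 3 or WT PTU + T3 replicate 4 was left out. In L-NCOR1ΔID, Lpl was at 9.41, 13.2, 15.1 and 12.6 RPKM, above 3 of the 4 WT PTU libraries, while WT PTU replicate 1 fell within that range. The log2 fold change was 1.31 ± 0.42 with an adjusted p of 0.117. Every L-NCOR1ΔID library exceeded every WT PTU + T3 library, and Lpl was called lower in WT PTU + T3 (log2 fold change -1.19 ± 0.27, adjusted p = 0.00893). This call held in 8 of 19 alternative settings and in 1 of the 8 that leave out a library (WT PTU + T3 replicate 4, adjusted p = 0.00266). Without any of the other 7 libraries the adjusted p was 0.0108 to 0.0288. Adipocyte markers were low, with sums over 7 genes of 6.43 to 11.5 RPKM in WT PTU, 7.56 to 23.7 RPKM in WT PTU + T3 and 7.62 to 23.2 RPKM in L-NCOR1ΔID. Fabp4, a fatty acid binding protein that macrophages and endothelium express as well, made up most of these sums, at 4.61 to 7.18 RPKM in WT PTU, 5.93 to 17.99 RPKM in WT PTU + T3 and 6.89 to 15.2 RPKM in L-NCOR1ΔID. Its log2 fold change was 0.995 ± 0.313 for T3 (adjusted p = 0.0261) and 0.89 ± 0.26 for L-NCOR1ΔID (adjusted p = 0.0981), neither called. Cidec was at most 5.34 RPKM in any library, Cfd at most 2.54, Adipoq at most 1.13, Plin1 at most 0.622 and Lep at most 0.098 RPKM. The part of adipocyte and macrophage markers in the Lpl values was not tested. In bulk liver, fewer cells of a type and less RNA per cell cannot be told apart.

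Angptl4 encodes a secreted inhibitor of lipoprotein lipase that is induced by fasting and fatty acids. Its RPKM was 72.1, 61.4, 69.7 and 73.4 in WT PTU, and 66.8, 82.9, 86.0 and 94.3 in WT PTU + T3. The groups overlapped through WT PTU + T3 replicate 1, and the log2 fold change was 0.25 ± 0.11 (adjusted p = 0.0909). In L-NCOR1ΔID the RPKM was 60.5, 20.4, 46.8 and 21.6. All 4 values were below the WT PTU range, with a 2.96-fold spread among them, and replicate 1 was near the lowest WT PTU library. The log2 fold change of -1.04 ± 0.33 had an adjusted p of 0.115 and was not called. Against WT PTU + T3, the L-NCOR1ΔID libraries were lower without overlap (log2 fold change of WT PTU + T3 over L-NCOR1ΔID 1.29 ± 0.34, adjusted p = 0.0152). Without L-NCOR1ΔID replicate 1, the adjusted p of this difference was 0.00473, past the threshold.

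Vldlr encodes the very low density lipoprotein receptor, which is abundant in heart, muscle and fat and scarce in liver. Its RPKM was 1.25, 0.599, 0.996 and 2.11 in WT PTU, and 0.097, 0.377, 0.148 and 0.061 in WT PTU + T3. Every hyperthyroid library was below every hypothyroid one, and the mean was 7.25 times as high in WT PTU. Vldlr fell by 2.31 ± 0.41 on the log2 scale (adjusted p = 0.00178). The hyperthyroid values rest on 1.59 to 9.47 reads per kilobase, against 18.5 to 80.7 in WT PTU. With a pseudocount of 1 the log2 fold change was -0.90, under the size threshold, and without the 3 libraries that hold pancreas or muscle RNA it was -2.03 with an adjusted p of 0.0144. L-NCOR1ΔID libraries were at 0.450, 0.507, 0.370 and 0.326 RPKM, below every WT PTU library. The difference from WT PTU was -1.27 ± 0.32 with an adjusted p of 0.0591. The range overlapped that of WT PTU + T3 through replicate 2 of the latter, and WT PTU + T3 differed from L-NCOR1ΔID by -1.04 ± 0.33 (adjusted p = 0.0339, and 0.00467, past the threshold, without that library). The second listed transcript of Vldlr, NM_013703, had nearly the same values, for example 1.23 against 1.25 RPKM in WT PTU replicate 1.

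Lrp1 encodes a large receptor that takes up remnants and many other ligands. Its RPKM was 61.5, 69.5, 73.3 and 65.8 in WT PTU, 73.7, 99.3, 80.8 and 59.6 in WT PTU + T3 and 54.9, 62.9, 66.8 and 66.3 in L-NCOR1ΔID. All 3 groups overlapped. The log2 fold change was 0.19 ± 0.14 for T3 (95% interval -0.12 to 0.51, adjusted p = 0.277) and -0.11 ± 0.09 for L-NCOR1ΔID (95% interval -0.30 to 0.09, adjusted p = 0.526). WT PTU + T3 and L-NCOR1ΔID differed by 0.30 ± 0.15 (95% interval -0.03 to 0.64, adjusted p = 0.137).

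Mttp encodes microsomal triglyceride transfer protein, which loads lipid onto nascent apolipoprotein B. Its RPKM was 63.7, 74.5, 83.9 and 67.6 in WT PTU, and 161.2, 135.5, 150.2 and 141.0 in WT PTU + T3. The lowest hyperthyroid library was well above the highest hypothyroid one, and the ratio of the means was 2.03. Mttp rose by 1.02 ± 0.10 on the log2 scale (adjusted p = 6.86e-05), close to the size threshold. Its change was at least 0.79 in all 19 alternative settings, with an adjusted p of at most 0.00188, but it fell short of a log2 fold change of 1 in 5 of them. These were the scaling by gene ratios, the omission of WT PTU replicate 1, WT PTU replicate 4 or WT PTU + T3 replicate 1, and that of the 3 libraries with other tissue RNA (0.98). In L-NCOR1ΔID the RPKM was 111.0, 65.3, 87.0 and 90.3, overlapping WT PTU (log2 fold change 0.27 ± 0.16, 95% interval -0.08 to 0.62, adjusted p = 0.365) and below every WT PTU + T3 library. The difference between WT PTU + T3 and L-NCOR1ΔID was 0.75 ± 0.15 (adjusted p = 0.00475), under the size threshold. The second listed transcript, NM_008642, differs little, with 65.6 RPKM in WT PTU replicate 1 and 166.8 RPKM in WT PTU + T3 replicate 1.

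Tm6sf2 encodes a membrane protein of the secretory pathway needed to lipidate very low density lipoproteins. Its RPKM was 9.95, 9.73, 11.7 and 14.1 in WT PTU, and 26.9, 24.1, 26.8 and 29.1 in WT PTU + T3. There was no overlap, and the ratio of the means was 2.35. Tm6sf2 rose by 1.24 ± 0.12 on the log2 scale (adjusted p = 7.16e-05) and was called in all 19 alternative settings. Of the 8 genes it was also the nearest to a call in L-NCOR1ΔID, with 21.0, 26.9, 21.0 and 15.8 RPKM. All 4 mutant libraries were above all WT PTU libraries, and the log2 fold change was 0.89 ± 0.17 with an adjusted p of 0.0223. The adjusted p was 0.00570 with all 12 libraries in 1 fit and 0.00895 without L-NCOR1ΔID replicate 4, both past the threshold. The mutant range overlapped that of WT PTU + T3 through replicate 2, and the 2 groups differed by 0.35 ± 0.15 (95% interval 0.02 to 0.68, adjusted p = 0.0843).

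Other genes of the same processes were read from 4 lists, outside the 8 genes. Of 12 other lipases, 8 were tested for T3, and 3 rose while none fell by limma, beside 8.28% and 3.47% of all genes. At an unadjusted p under 0.05, 3 were higher and 2 were lower, where 56.5% of all genes passed in either direction. Pnpla3, a lipid droplet protein related to adipose triglyceride lipase, rose by 5.24 ± 0.35 on the log2 scale (adjusted p = 1.21e-05), from 0.103 to 0.147 RPKM in WT PTU to 3.86 to 13.5 RPKM in WT PTU + T3. Mgll, which cleaves monoglycerides, rose by 2.04 ± 0.25 (adjusted p = 0.000237), from 19.2 to 43.2 RPKM to 111.8 to 126.2 RPKM. Pnpla2, adipose triglyceride lipase, rose by 1.04 ± 0.11 (adjusted p = 0.000112), and like Mttp it was near the size threshold, with values of 0.97 and 0.99 without WT PTU replicate 1 and WT PTU + T3 replicate 4 and of 0.81 with scaling by gene ratios. Pancreatic lipase, Pnlip, had a log2 fold change of 3.25 ± 1.91 (adjusted p = 0.181), beside the pancreatic markers in WT PTU + T3 replicate 3. The median over this list was 0.65, beside 0.23 over all genes tested.

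Of 18 regulators of lipases, 17 were tested, 1 rose and 1 fell, beside 8.28% and 3.47% of all genes tested. Without a threshold on size, 5 were higher and 2 lower at an adjusted p under 0.01, beside 24.5% and 7.71% of all genes. Angptl2, an angiopoietin-like protein, rose by 1.32 ± 0.19 (adjusted p = 0.000533), from 1.47 to 2.48 RPKM to 3.46 to 5.39 RPKM. Apoa5, an apolipoprotein that promotes lipoprotein lipase action, fell by 1.09 ± 0.13 (adjusted p = 0.000212), from 580.1 to 789.0 RPKM to 264.5 to 351.3 RPKM. The median over this list was 0.18, beside 0.23 over all genes tested.

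Of 17 other receptors and their partners, 14 were tested, 2 rose and 2 fell, beside 8.28% and 3.47% of all genes tested. Without a threshold on size, 7 were higher and 2 lower at an adjusted p under 0.01, beside 24.5% and 7.71% of all genes. Sort1, sortilin, rose by 2.56 ± 0.33 (adjusted p = 0.000330), from 0.775 to 2.48 RPKM to 7.80 to 10.6 RPKM. Lrp5, a member of the LDL receptor family known as a Wnt coreceptor, rose by 1.53 ± 0.09 (adjusted p = 9.10e-06). Sdc1, a heparan sulfate proteoglycan that binds remnants, fell by 1.18 ± 0.16 (adjusted p = 0.000387), from 54.1 to 80.6 RPKM to 23.6 to 35.4 RPKM. The median over this list was 0.46, beside 0.23 over all genes tested.

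Of 23 other genes of lipoprotein assembly and secretion, 22 were tested, 1 rose and none fell by limma, beside 8.28% and 3.47% of all genes. At an unadjusted p under 0.05, 13 were higher and 4 were lower, beside the 56.5% of all genes that passed. The gene that rose was Tm6sf1, a relative of Tm6sf2, with a log2 fold change of 1.29 ± 0.18 (adjusted p = 0.000421) at 0.592 to 0.789 RPKM in WT PTU and 1.54 to 2.60 RPKM in WT PTU + T3. With a pseudocount of 1 its log2 fold change was 0.75, under the size threshold, and the call was lost. Without a threshold on size, 8 of the 22 passed upward and 2 downward at an adjusted p under 0.01, as did 24.5% and 7.71% of all genes, and the list's median of 0.20 was close to the 0.23 of all genes.

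In L-NCOR1ΔID against WT PTU, 1 gene of the 4 lists was called by limma, beside 0.725% of all genes called higher and 0.544% lower. Pla1a, a phospholipase of the pancreatic lipase family, was higher by 1.10 ± 0.13 (adjusted p = 0.00300), with 16.9 to 20.6 RPKM in L-NCOR1ΔID and 7.37 to 10.9 RPKM in WT PTU. The call of Pla1a was lost without WT PTU replicate 2 or 3 or L-NCOR1ΔID replicate 1 or 3, with adjusted p of 0.0107 to 0.0132, and without the 3 libraries that hold pancreas or muscle RNA (adjusted p = 0.0151). At an unadjusted p under 0.05, 3 of 7 lipases tested, 6 of 17 regulators of lipases, 3 of 14 receptors and 3 of 22 assembly genes passed, beside 20.5% of all genes. Pnpla3 had a log2 fold change of 3.77 ± 0.72 (adjusted p = 0.0222) and was not called. Its mean was 0.125 RPKM in WT PTU and 4.63 RPKM in L-NCOR1ΔID. The groups did not overlap, and the L-NCOR1ΔID libraries varied 18.7-fold. Of the most abundant genes of the other lists, Apoc1 and Apoc3, inhibitors of lipoprotein lipolysis, had log2 fold changes of 0.18 ± 0.20 (adjusted p = 0.660) and 0.22 ± 0.14 (adjusted p = 0.408). Scarb1 and Lsr, receptors for high density and triglyceride-rich lipoproteins, had 0.41 ± 0.15 (adjusted p = 0.172) and 0.14 ± 0.11 (adjusted p = 0.509). Apob and P4hb, a protein disulfide isomerase that partners Mttp, had -0.28 ± 0.12 (adjusted p = 0.211) and 0.15 ± 0.09 (adjusted p = 0.370).

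In WT PTU + T3 against L-NCOR1ΔID, 1 of 7 lipases tested, 1 of 14 receptors and 1 of 22 assembly genes were called higher, and 1 receptor was called lower. Of all genes tested, 5.52% were called higher and 3.00% lower. Mgll was higher by 2.64 ± 0.33 (adjusted p = 0.000477), Sort1 by 2.73 ± 0.29 (adjusted p = 0.000208) and Tm6sf1 by 1.11 ± 0.26 (adjusted p = 0.00940). Sdc1 had a log2 fold change of -1.10 ± 0.21 (adjusted p = 0.00362), a call that was lost in 5 of the 8 settings that leave out a library (WT PTU + T3 replicates 1, 3 and 4 and L-NCOR1ΔID replicates 1 and 2, highest adjusted p 0.0115) and without the 3 libraries with other tissue RNA (0.0296). The call of Tm6sf1 was lost in 7 of 8, all but that without L-NCOR1ΔID replicate 1, with adjusted p up to 0.0297. It was also lost with a pseudocount of 1 (log2 fold change 0.65) or 0.01, no filter, no variance trend, the replicate block, scaling by gene ratios or the 3 libraries left out. None of 17 regulators of lipases was called by limma, and 10 passed an unadjusted p under 0.05, as did 48.4% of all genes. The 2 most abundant of them, Apoc1 and Apoc3, had log2 fold changes of -0.97 ± 0.23 (adjusted p = 0.0110) and 0.11 ± 0.21 (adjusted p = 0.704).

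**Figure D4:**
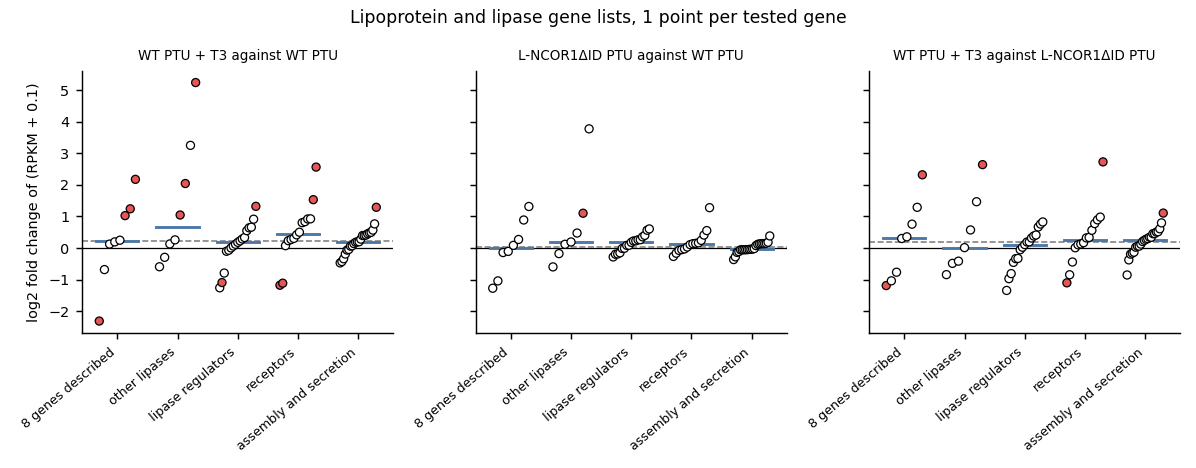
Log2 fold change of RPKM + 0.1 (y axis) of each tested gene of the 8 genes described and the 4 lists (x axis) in the 3 comparisons, with 1 point per gene. Filled points were called, blue lines are the list medians, and the dashed line is the median of all genes tested. The highest filled point among the other lipases is Pnpla3, at 5.24 for T3.

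Genes with the most similar pattern over the 12 libraries were ranked by Pearson's r of log2(RPKM + 0.1), among genes with a mean of at least 1 RPKM. Since the libraries form 3 groups and 24 genes were picked from many, r describes mainly the order of the groups and has no test. The closest to Mttp was Me1, malic enzyme, which supplies NADPH for fatty acid synthesis (r = 0.987, Spearman's rho = 0.993), at means of 24.3, 133.9 and 37.8 RPKM in WT PTU, WT PTU + T3 and L-NCOR1ΔID. Slc35g1 (r = 0.974) and Pdha1, a subunit of pyruvate dehydrogenase (r = 0.974), followed. Tm6sf2 was most like Faap20 (r = 0.978), Pdlim1 (r = 0.974) and Actn4 (r = 0.966), and these means too were highest in WT PTU + T3 with L-NCOR1ΔID second. Lipg was most like Acsf2 (r = 0.971), Atp6v0a2 (r = 0.962) and Abhd6, a monoglyceride lipase (r = 0.961). Abhd6 was at means of 9.42, 22.5 and 8.22 RPKM in the same order of groups. For Lipc these were Sgms2, a sphingomyelin synthase (r = 0.935), Cnp (r = 0.932) and Tmem184b (r = 0.929). For Vldlr they were Smoc1 (r = 0.935), Dpys (r = 0.915) and Ndfip1 (r = 0.911). Angptl4 was most like Stau2 (r = 0.942), Mir290b (r = 0.936) and Vps41 (r = 0.924), and Lrp1 like Ube3b (r = 0.930), Ehbp1 (r = 0.923) and 5031425E22Rik (r = 0.913). Lpl had the lowest values, with F830016B08Rik (r = 0.891), Gm12191 (r = 0.881) and Rpl30 (r = 0.878). By Spearman's rho, 4 of these 24 genes stayed among the first 3.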

How the data were processed

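RNA-seq values of 12 liver libraries and the list of acetylated regions were used, and the other libraries of the study were not analysed here. Per the labels and the study's methods, the authors used STAR for alignment to mm9 and HOMER for quantification of RefSeq transcripts. The deposited unit is RPKM, so that no read counts enter the tests. DESeq2, which the authors ran on counts, was not used here. All 12 libraries had runs on the same pair of instruments. The acetylated regions were called by the authors with HOMER and merged over both marks and both conditions.

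Log2(RPKM + 0.1) was fitted by limma (version 3.58.1, under R 4.3.3) for the 8 libraries of each comparison, using its variance trend, and p-values were adjusted after Benjamini and Hochberg over all genes tested. Tested genes reached 0.1 RPKM in 4 or more libraries. Fold changes on this scale understate changes of low genes. Calls required an adjusted p under 0.01 and, where T3-treated mice were compared, a log2 fold change above 1 in size. On data simulated from WT PTU values, 200 genes changed by 2 or 3 log2 units, and 96.5% of them were called. The T3 thresholds were applied, and neither smaller changes nor the L-NCOR1ΔID rule was simulated. The 8 genes, the lists and the naming rule were chosen with earlier results of these data known. The rule names the 8 genes, up to 3 called genes per list and comparison with the largest change and at least 1 RPKM (the 2 most abundant where none was called), and 3 similar genes each. Pnlip, and Pnpla3 for L-NCOR1ΔID, were named after their values were seen. One transcript row without a gene name was dropped, at most 0.00079% of the RPKM of a library, and 0 columns were left unused. Alternatives are given in the closing section. Intervals cover the spread between libraries.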

Additional observations from a re-analysis of the deposited data

Results flagged for a closer look

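In groups of 4 libraries, a highest or lowest value with an unusually wide gap to its neighbour (Dixon's test at the 95% level) was singled out, which chance gives in about 1 in 20 groups. None of the 8 genes met this in any group. Of the summed marker lists, that of skeletal muscle stood out in WT PTU replicate 4 (27.5 RPKM) and L-NCOR1ΔID replicate 1 (7.29 RPKM), that of pancreatic acinar cells in WT PTU + T3 replicate 3 (779.8 RPKM), and that of cholangiocytes in L-NCOR1ΔID replicate 4, at the low end (11.4 RPKM). The results without the first 3 of these libraries are given with Lipg, Vldlr and Mttp and in the next part.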

How the results depend on the processing

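Over 19 alternatives for T3, chosen as described above except for the omission of the 3 libraries with pancreas or muscle RNA, which was added after the data were seen, Tm6sf2 kept its call in 19 and Lipg in 18. Vldlr kept it in 15 of 18 and had no value with a mean of at least 1 RPKM, and Mttp kept it in 14. Members called lower with T3 numbered 0 with a pseudocount of 1, a mean of at least 1 RPKM, the replicate block or the 3 libraries left out, where 1 was called higher. For L-NCOR1ΔID, 1 member was called higher with all 12 libraries in 1 fit or an adjusted p under 0.05, and 0 to 1 when a library was left out. For WT PTU + T3 against L-NCOR1ΔID, 2 members were higher in 1 fit or at an adjusted p under 0.05, and 1 to 2 with a library left out. Members lower there numbered 0 with no filter, 1 fit, no variance trend or the 3 libraries left out, 2 at an adjusted p under 0.05, and 0 to 1 with a library left out.

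Listed genes called higher in L-NCOR1ΔID numbered 3 in 1 fit, 0 with the replicate block or the 3 libraries left out, 4 at an adjusted p under 0.05, and 0 to 2 with a library left out. Listed genes called lower in WT PTU + T3 than in L-NCOR1ΔID numbered 6 with scaling by gene ratios, 2 with the most abundant transcript, 0 without the 3 libraries, and 0 to 2 with a library left out. Over all genes, T3 calls were 575 higher and 319 lower with a pseudocount of 1, and 747 higher with scaling by gene ratios. L-NCOR1ΔID calls were 20 higher and 25 lower with the replicate block, 63 higher with no variance trend, 118 lower in 1 fit, 344 higher and 257 lower at an adjusted p under 0.05, and 10 higher and 11 lower without the 3 libraries. With a library left out they ranged from 36 to 110 higher and from 28 to 77 lower. WT PTU + T3 against L-NCOR1ΔID gave 480 higher with a pseudocount of 1, and 464 higher and 260 lower without the 3 libraries.

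Uncalled values changed sign in a few settings. With scaling by gene ratios the T3 value was -0.11 for Lpl and -0.046 for Lrp1, and Apoc3 was -0.087 between WT PTU + T3 and L-NCOR1ΔID. With a library left out, the T3 value of Lpl ranged from -0.13 to 0.57, and the L-NCOR1ΔID values ranged from -0.55 to 0.19 for Lipg and from -0.028 to 0.21 for Lipc. The cause was not tested.

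Same-numbered libraries did not deviate together (the correlations ranged from -0.15 to 0.18), so the replicate block is given only here. In it, Vldlr had an adjusted p of 0.0135 for T3 and lost its call, and Pla1a had 0.0288 for L-NCOR1ΔID. Regions near the 8 genes numbered 38 within 50 kb and 125 within 200 kb in place of 65, and 5 in place of 32 held a match when at least 11 bases were required. Ranking by Spearman's rho kept 4 of 24 similar genes.

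With 4 libraries per group, differences in the scarce and variable genes Lipg, Lpl and Vldlr have wide intervals. Vldlr in hyperthyroid livers, at 0.061 to 0.377 RPKM, rests on 1.59 to 9.47 reads per kilobase.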
